A study of Mus musculus with 18 samples.

Results

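The inhibitor of DNA binding (Id) proteins and the E proteins were followed through 7 groups of sorted mouse CD4 T cells measured on 18 Affymetrix arrays. The genes were the Id genes Id1, Id2 and Id3 and the E protein genes Tcf3, Tcf4 and Tcf12, so 6 of the 18193 genes that the chip annotation tied to probe sets of their own. A probe set counted for a gene only where the annotation assigned it to that gene and to no other, which gave 19 probe sets in all. Id1 and Id3 had 1 each, Id2 and Tcf3 had 3 each, Tcf12 had 5 and Tcf4 had 6. Where a gene had several, the one with the largest variance over the 18 arrays stood for it, and the others are described beside it.

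E proteins are basic helix-loop-helix transcription factors that pair with each other or with related factors and bind a short DNA motif called the E-box. Tcf3 encodes E2A, Tcf4 encodes E2-2 and Tcf12 encodes HEB. Id proteins carry the helix-loop-helix but lack the basic region that touches DNA, so an E protein paired with an Id protein cannot bind. In T cells the balance between the sides is known to set thresholds for development and for helper and regulatory T cell states, with Id2 and Id3 as the main inhibitors. Id3 is known as a target of T cell receptor signalling through Egr factors, and Id2 accompanies effector differentiation. Tcf4 is best known as the factor that specifies plasmacytoid dendritic cells.

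All cells were CD4+ and came with no treatment or culture from the lymph nodes and spleen of mice of strain B6;129, per the labels. Every mouse carried a Foxp3 allele marked with hCD2 and a wild-type Foxp3 allele marked with GFP. Regulatory T (Treg) cells are defined by Foxp3, whose gene is on the X chromosome, so in a heterozygous female each Treg cell uses a single allele and its reporter shows which. In mice with 2 wild-type alleles, cells negative for both reporters were the conventional T cells (Tconv, 2 arrays). Their GFP+ cells were the WT GFP Treg cells (2 arrays) and their hCD2+ cells the WT hCD2 Treg cells (2 arrays). Mice whose hCD2 allele carried the Foxp3 substitution A384T gave hCD2+ A384T Treg cells (3 arrays) and, from the same kind of mouse, GFP+ wild-type Treg cells (3 arrays). The I363V and R397W alleles gave hCD2+ Treg cells (3 arrays each). The labels give neither age nor the number of animals behind an array, so the p-values measure only the spread between these samples, which may be technical.

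Every value below is a log2 value relative to the Tconv mean, which is that of 2 arrays, because the authors deposited RMA values centred in that way. A value of -1 is therefore a level at 0.5 of the Tconv mean, and the absolute level of each gene is unknown. Changes are log2 differences ± SE from a limma fit of all 18 arrays, and a gene was called where the Benjamini-Hochberg adjusted p over all 18193 genes was under 0.05. The number of arrays limits the precision.

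The sorted populations were checked against marker genes. All 6 Treg markers were called higher in wild-type Treg cells than in Tconv, with Foxp3 higher by 7.23 ± 0.18, and of 6 T cell identity genes none was called. The median of the Treg markers lay between 3.34 and 4.65 on every Treg array. Against WT hCD2, 0 of these 6 were called in A384T, 1 lower in I363V and 3 lower in R397W. The shares of all genes called were 0.28%, 0.912% and 2.26%. Set against A384T, 1 of the 6 was called lower in I363V (1.14% of all genes) and 4 in R397W (3.13%). Median changes over all genes lay between -0.03 and 0.01 in every comparison made. R397W arrays 2 and 3 had the lowest weights of the 18 when limma estimated array weights, 0.56 and 0.45, which means that they departed most from the fitted group means.

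The promoters of Id2 and Id3 are shown because these 2 genes moved in opposite directions between Tconv and Treg cells. Each is the 250 bases before the annotated start, from RefSeq on GRCm38.p6, at chr12:25096093-25096342 on the minus strand for Id2 and at chr4:136143572-136143821 on the plus strand for Id3. Capitals mark an E-box, searched on both strands as CANNTG.
Id2: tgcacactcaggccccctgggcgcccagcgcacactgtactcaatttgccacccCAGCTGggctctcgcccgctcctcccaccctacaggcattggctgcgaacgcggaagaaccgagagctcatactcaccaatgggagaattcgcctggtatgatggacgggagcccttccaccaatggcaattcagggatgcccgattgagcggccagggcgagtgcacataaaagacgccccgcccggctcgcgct
Id3: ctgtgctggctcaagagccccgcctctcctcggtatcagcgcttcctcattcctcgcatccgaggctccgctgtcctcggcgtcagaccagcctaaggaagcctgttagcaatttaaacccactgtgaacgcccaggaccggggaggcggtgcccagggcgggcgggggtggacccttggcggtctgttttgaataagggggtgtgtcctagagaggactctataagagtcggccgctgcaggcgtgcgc
The Id2 window held 1 E-box, CAGCTG, whose first base lies 196 bases before the start. The Id3 window held 0. An E-box is a common word, present in 66.2% of 32851 promoter windows of this length. The forkhead cores TGTTTAC and TGTTTGC, searched on both strands, were in neither window, and they occurred in 3.2% and 4.3% of all windows. The EGR core GCGTGGGCG was also in neither and occurred in 0.5% of windows. GC content was 62.8% in both.

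The first comparison asked how the genes differ between wild-type Treg cells, WT GFP and WT hCD2 together, and Tconv. Among the Id genes, Id2 was lower and Id3 higher in wild-type Treg cells, each by more than 2-fold, and no E protein gene was called. This made 2 of 6 called, where 5.84% of all genes were called, and 3 of 6 had an unadjusted p under 0.05. The median change of the 6 was 0.02, and that of all genes -0.01.

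Id3 stood at 0.24 and -0.24 on the Tconv arrays, at 1.63 and 1.44 on the WT GFP arrays and at 1.49 and 1.14 on the WT hCD2 arrays. All 4 wild-type Treg arrays lay above both Tconv arrays. The fit treats these 4 arrays as independent. No label says whether WT GFP and WT hCD2 arrays share mice, and their pairing was not examined. Id3 was higher by 1.43 ± 0.29, or 2.69-fold (limma adjusted p = 0.00685). The call was lost without Tconv array 2, where the change was 1.18 (adjusted p = 0.142), and held with each of the other 5 arrays left out in turn.

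Id2 stood at -0.16 and 0.16 on the Tconv arrays, at -1.30 and -1.05 on the WT GFP arrays and at -1.08 and -1.02 on the WT hCD2 arrays. Again the groups did not overlap, and here every Treg array was the lower. Id2 fell by 1.11 ± 0.28, or 2.16-fold (limma adjusted p = 0.0271). The call held in only 1 of 6 left-out fits, that without WT GFP array 2 (adjusted p = 0.0462), and rose to an adjusted p of 0.281 without Tconv array 2, 0.0822 without Tconv array 1, 0.0772 without WT GFP array 1, 0.0686 without WT hCD2 array 3 and 0.0563 without WT hCD2 array 4. In those 6 fits the change kept its sign, between -1.27 and -0.95. The other Id2 probe sets were also lower in wild-type Treg cells, 1422537_a_at by -0.45 ± 0.37 and 1453596_at by -0.66 ± 0.26, without a call. Innate lymphoid, NK and CD8 T cells express Id2, and of their 6 measured markers 2 were called lower in wild-type Treg cells, Eomes by -1.25 ± 0.20 and Klrk1 by -0.59 ± 0.13. The median change of the list was only -0.09. Cd8a of the same list did not fall, at 0.06 and -0.04 in WT GFP and at 0.15 and 0.29 in WT hCD2. The part of these cells in the Id2 difference was not tested. In sorted bulk samples, fewer cells of a type and less RNA per cell cannot be told apart.

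Id1 showed no such shift. Its values ran from -0.12 to 0.12 in Tconv and from -0.22 to 0.27 on the 4 wild-type Treg arrays, and the fitted difference was 0 with a 95% confidence interval of -0.33 to 0.33. Over all 18 arrays its standard deviation was 0.17, the smallest among the 6 chosen probe sets.

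Tcf4 differed between the Tconv arrays themselves, at -0.66 and 0.66. It stood at -0.59 and -0.66 in WT GFP and at -0.51 and -0.83 in WT hCD2, so the wild-type Treg arrays lay near the first Tconv array and below the second. The fitted difference of -0.64 ± 0.25 was not called (limma adjusted p = 0.205). It turned on which Tconv array was kept: without Tconv array 1 it was -1.31 ± 0.18 (adjusted p = 0.000569), and without Tconv array 2 it was 0.02 ± 0.18 (adjusted p = 0.997). Markers of dendritic and B cells also differed between the Tconv arrays. The median of 7 such genes was -0.32 on Tconv array 1 and 0.32 on Tconv array 2, and between -0.71 and -0.29 on every Treg array. In wild-type Treg cells 3 of the 7 were called lower, H2-Aa by -2.43 ± 0.65, Itgax by -1.16 ± 0.25 and Flt3 by -0.51 ± 0.14, while Ccr9 of the same list went the other way, at 0.42 to 0.55 on the wild-type Treg arrays and 0.49 ± 0.41 above Tconv without a call. Siglech, the surface marker of plasmacytoid dendritic cells, stood at -0.20 and 0.20 on the Tconv arrays. The median of 7 B cell markers was -0.17 on Tconv array 1 and 0.17 on Tconv array 2, with Ms4a1 at -0.36 and 0.36. Of these 7, 1 was called in wild-type Treg cells, Cd79b, higher by 2.21 ± 0.26. The part of these cells in the Tcf4 values was not tested.

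Tcf3 and Tcf12 were not called. Tcf3 stood at 0.49 and -0.49 in Tconv, at 0.91 and 0.10 in WT GFP and at 0.85 and 0.05 in WT hCD2, which gave a difference of 0.48 ± 0.44 (limma adjusted p = 0.696). Tcf12 stood at 0.39 and -0.39 in Tconv, at 0.42 and -0.34 in WT GFP and at 0.25 and -0.16 in WT hCD2, a difference of 0.04 ± 0.29. For both genes the wild-type Treg arrays overlapped the Tconv range. Between arrays of equal number, WT GFP less Tconv was 0.42 and 0.59 for Tcf3 and 0.03 and 0.05 for Tcf12. No label says what these numbers share, so the overlap does not show that Tcf3 is unchanged.

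**Figure D1:**
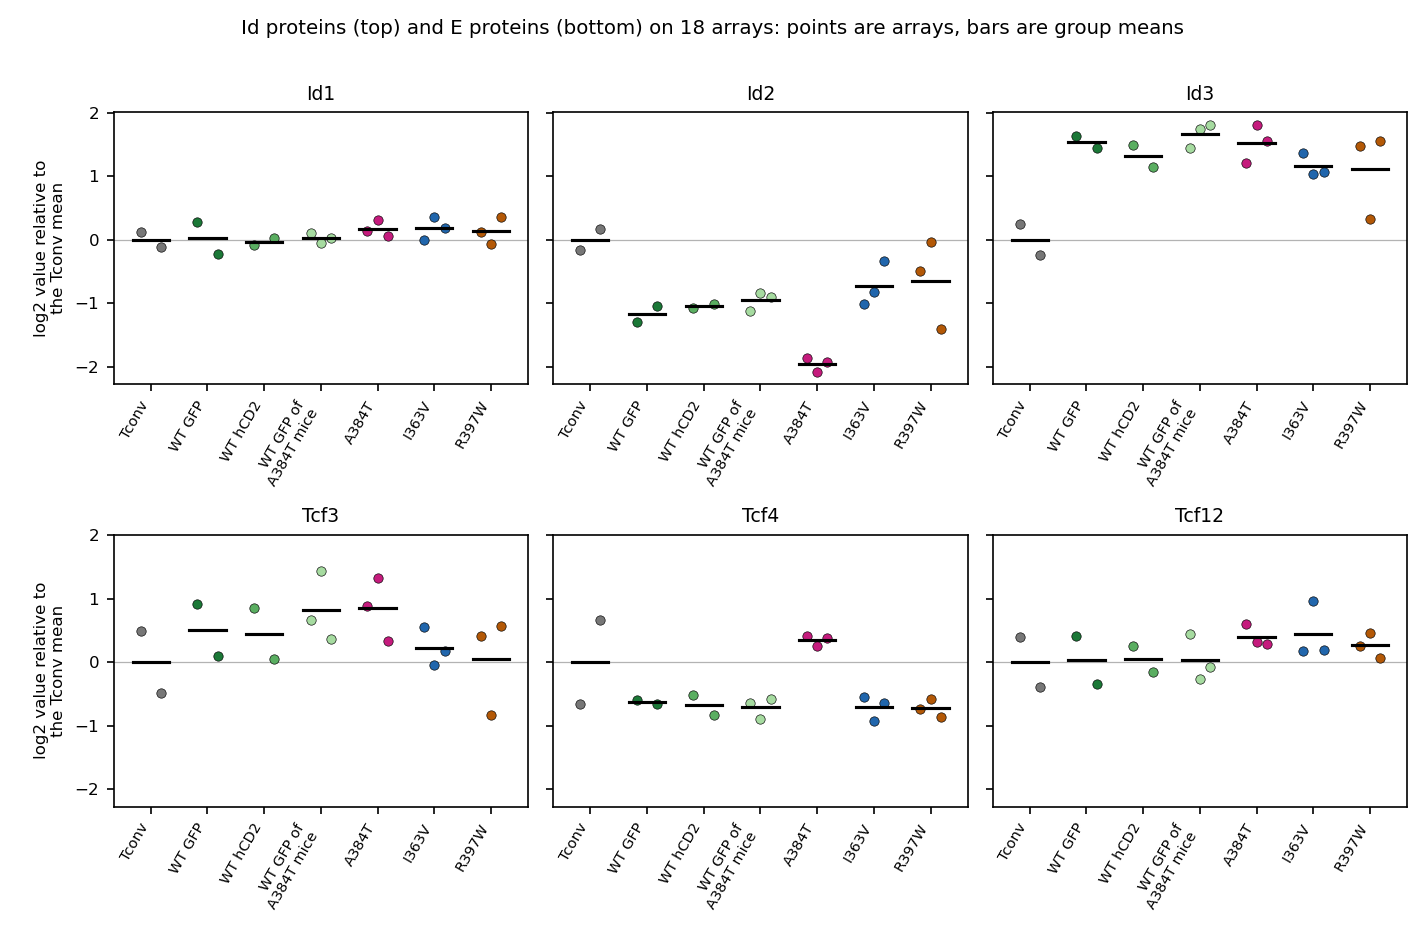
Each point is 1 of 18 arrays and each bar a group mean; the vertical axis is the log2 value relative to the Tconv mean and the horizontal axis the 7 groups. Id2 is lowest in A384T (-2.08 to -1.86), Id3 is above Tconv in all Treg groups, and Tcf4 in A384T (0.26 to 0.41) lies above every other Treg array.

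Across the mutants, A384T stood apart in Id2 and Tcf4. Id2 stood at -1.86, -2.08 and -1.93 on the A384T arrays. WT GFP arrays of A384T mice stood at -1.12, -0.84 and -0.91, I363V arrays at -1.02, -0.82 and -0.33, and R397W arrays at -0.50, -0.04 and -1.41. Each A384T array was below every other array of the series for this probe set, the nearest being R397W array 3. Tcf4 ran the other way, at 0.41, 0.26 and 0.38 on the A384T arrays. It stood at -0.64, -0.90 and -0.58 on the WT GFP arrays of A384T mice, at -0.55, -0.92 and -0.64 on the I363V arrays and at -0.74, -0.58 and -0.87 on the R397W arrays. No other Treg array reached the A384T range, but Tconv array 2 lay above it.

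Against WT hCD2, which carries the same reporter, A384T cells had Id2 lower by -0.91 ± 0.29 (limma adjusted p = 0.372) and Tcf4 higher by 1.02 ± 0.27 (adjusted p = 0.206). Neither was called. Called members were 0 of 6, where 0.28% of all genes were called, and 2 of 6, Id2 and Tcf4, had an unadjusted p under 0.05. The other 4 changes lay between 0.20 and 0.40, without a call.

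The same contrast was available inside A384T mice, where the wild-type GFP cells serve as the control. Id2 differed by -1.0 ± 0.26 (limma adjusted p = 0.163) and Tcf4 by 1.06 ± 0.24 (adjusted p = 0.0765), again 0 of 6 called against 0.522% of all genes, with 2 of 6 at an unadjusted p under 0.05. In these groups arrays with equal replicate numbers deviated together from their group means, so a fit of these 6 arrays with the number as a block was also made. With the block Id2 was lower by -1.0 ± 0.10 (limma adjusted p = 0.000745) and Tcf4 higher by 1.06 ± 0.08 (adjusted p = 0.000182). This made 2 of 6 called, where the block called 5.23% of all genes. The block SE lay between 0.08 and 0.10 for all 6 members. With only 3 pairs, limma leans mostly on the spread shared by all genes. These SE and p-values therefore say little about the spread of each gene by itself. Within number 1, 2 and 3 the A384T array differed from its wild-type partner by -0.74, -1.24 and -1.02 for Id2 and by 1.05, 1.16 and 0.96 for Tcf4, so each pair moved the same way. Tcf12 was higher in each pair, by 0.16, 0.58 and 0.36, and was not called with the block (0.36 ± 0.10, adjusted p = 0.0678). Id1, Id3 and Tcf3 differed by 0.14, -0.15 and 0.03.

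**Figure D2:**
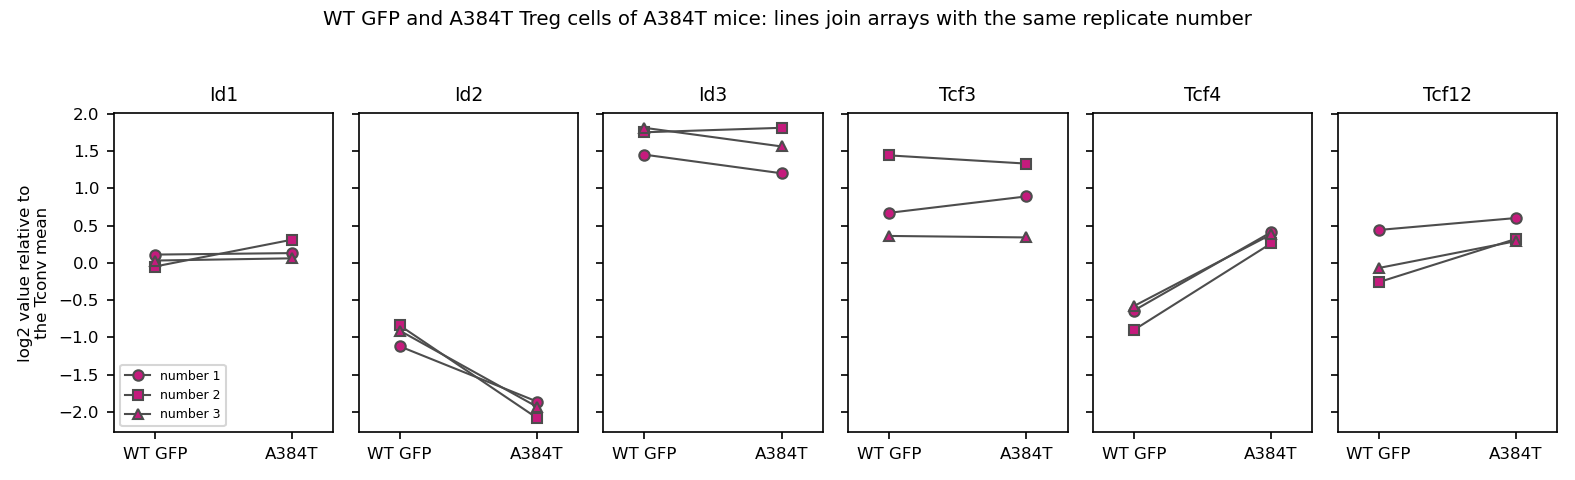
Lines join the WT GFP and A384T arrays of A384T mice that share a replicate number (1, 2 or 3); the vertical axis is the log2 value relative to the Tconv mean. All 3 lines fall for Id2 and rise for Tcf4, while those of Id3 and Tcf3 go both ways.

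Whether the A384T difference within its mice exceeded the hCD2 against GFP difference in wild-type mice was tested as an interaction. It was -1.13 ± 0.41 for Id2 and 1.10 ± 0.38 for Tcf4, with limma adjusted p = 1 for both. This fit had no replicate block, so its SE also hold the spread that arrays of equal number shared in A384T mice. No member was called, where 0.0495% of all genes were called, and Id2 and Tcf4 had an unadjusted p under 0.05. The lack of a call therefore does not show that the differences are equal. Between the reporters in wild-type mice no member was called either. WT hCD2 less WT GFP was 0.12 ± 0.32 for Id2 and -0.04 ± 0.29 for Tcf4, and the 6 changes lay between -0.21 and 0.12. In that comparison limma called 0 genes of any kind (0%), with 462 at an unadjusted p under 0.05. Wild-type GFP cells of A384T mice less those of wild-type mice were likewise without a call (0% of all genes, 473 at an unadjusted p under 0.05), and the 6 changes lay between -0.08 and 0.32, with Id2 at 0.22 ± 0.29 and Tcf4 at -0.08 ± 0.27.

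Between WT hCD2 and I363V or R397W cells, no Id or E protein gene was called. For I363V the count was 0 of 6 against 0.912% of all genes, and for R397W 0 of 6 against 2.26%, and in both comparisons 0 of 6 had an unadjusted p under 0.05 in limma. Id2 was at 0.32 ± 0.29 in I363V (95% confidence interval -0.30 to 0.95) and at 0.40 ± 0.29 in R397W (-0.22 to 1.03). Tcf4 was at -0.04 ± 0.27 (-0.61 to 0.53) and -0.06 ± 0.27 (-0.63 to 0.51). The intervals of Tcf3 were wider, -1.22 to 0.77 in I363V and -1.39 to 0.59 in R397W, and that of Id1 in R397W was -0.18 to 0.51, so changes within these bounds could not be seen. I363V and R397W were compared with each other as well: the 6 differences lay between -0.19 and 0.08, with 0 of 6 called against 0.0824% of all genes and 0 of 6 at an unadjusted p under 0.05.

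Set against A384T directly, both other mutants had Id2 higher and Tcf4 lower, and these 2 genes were called in each comparison. In I363V Id2 was higher by 1.23 ± 0.26, or 2.35-fold (limma adjusted p = 0.034), and Tcf4 fell by 1.06 ± 0.24, or 2.08-fold (adjusted p = 0.048), in a comparison that called 1.14% of all genes. In R397W Id2 was higher by 1.31 ± 0.26, or 2.48-fold (adjusted p = 0.013), and Tcf4 fell by 1.08 ± 0.24, or 2.11-fold (adjusted p = 0.0232), where 3.13% of all genes were called. The comparisons share the 3 A384T arrays. For each gene the A384T arrays overlapped neither the I363V nor the R397W arrays.

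These calls sat close to the threshold. With 1 array left out in turn, Id2 against I363V was called only without I363V array 1 (adjusted p = 0.0498), and its adjusted p otherwise reached 0.161. Tcf4 against I363V was called in 0 of 6 such fits, with limma adjusted p from 0.0948 to 0.185. Id2 against R397W was lost only without A384T array 2 (adjusted p = 0.0641), and without R397W array 3, the lowest of its group, the change was 1.69. Tcf4 against R397W was called only without R397W array 2 (adjusted p = 0.0424), and its changes lay between -1.15 and -1.01. No change lost its sign in these fits. Of the other genes, Tcf3 had the largest differences from A384T, -0.63 ± 0.41 in I363V and -0.80 ± 0.41 in R397W, without a call.

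**Figure D3:**
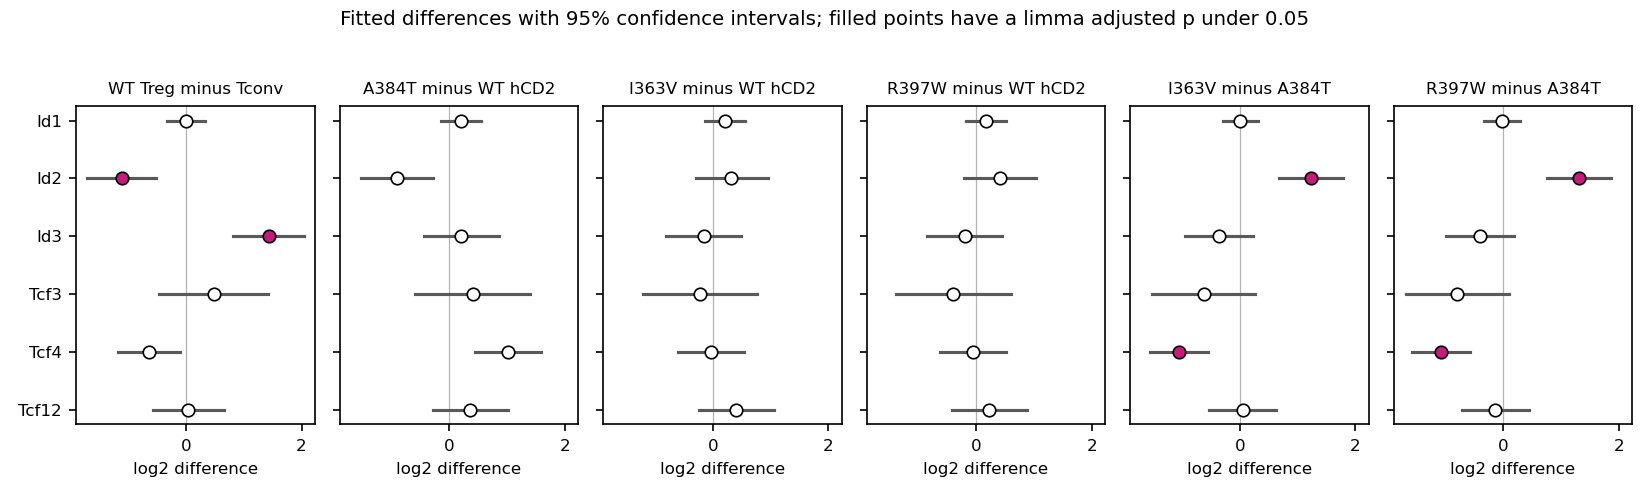
Points are fitted log2 differences and lines their 95% confidence intervals for the 6 genes (vertical axis) in 6 comparisons (panels); filled points have a limma adjusted p under 0.05. Id2 and Id3 are filled against Tconv, and Id2 and Tcf4 are filled where I363V or R397W is set against A384T.

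The other probe sets of Tcf4 and Id2 bear on the A384T pattern. Of the 5 further Tcf4 probe sets, 1416723_at, 1416724_x_at, 1424089_a_at and 1434149_at were higher in A384T than in wild-type cells of the same mice, by 0.94, 0.65, 0.52 and 0.34, while 1416725_at differed by 0.01. When every probe set was tested by itself with the replicate block, 1434148_at (limma adjusted p = 0.000244), 1416723_at (0.000547) and 1416724_x_at (0.0123) were called and 1424089_a_at (0.137), 1434149_at (0.197) and 1416725_at (0.967) were not. All 3 Id2 probe sets were called lower in that test, 1435176_a_at by -1.0, 1422537_a_at by -0.79 and 1453596_at by -0.43. The share of all probe sets called in that test was not computed. By gene the block called 5.23%, and its p-values say little about the spread of each probe set by itself. Against WT hCD2 the Id2 probe sets disagreed, at -0.91, -0.46 and 0.09, and 1453596_at was about as low in WT hCD2 (-1.10 and -0.37) as in A384T (-0.77 to -0.56). Against I363V the further Id2 probe sets gave 0.30 and 0.31 and against R397W 0.73 and 0.12, without a call.

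With the mean of all probe sets of a gene in place of the most variable one, Id2 differed between I363V and A384T by 0.61 (limma adjusted p = 0.122) and between R397W and A384T by 0.72 (adjusted p = 0.033). Tcf4 then differed by -0.61 (adjusted p = 0.155) and -0.45 (adjusted p = 0.237). The chosen probe sets are the most variable ones, and that choice favours larger changes. Over the 18 arrays the chosen Tcf4 probe set had Pearson r of 0.68 to 0.79 with 4 others and 0 with 1416725_at, and the chosen Id2 probe set had r of 0.43 and 0.25 with its others. These are descriptions, and probe sets of a gene share every array.

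**Figure D4:**
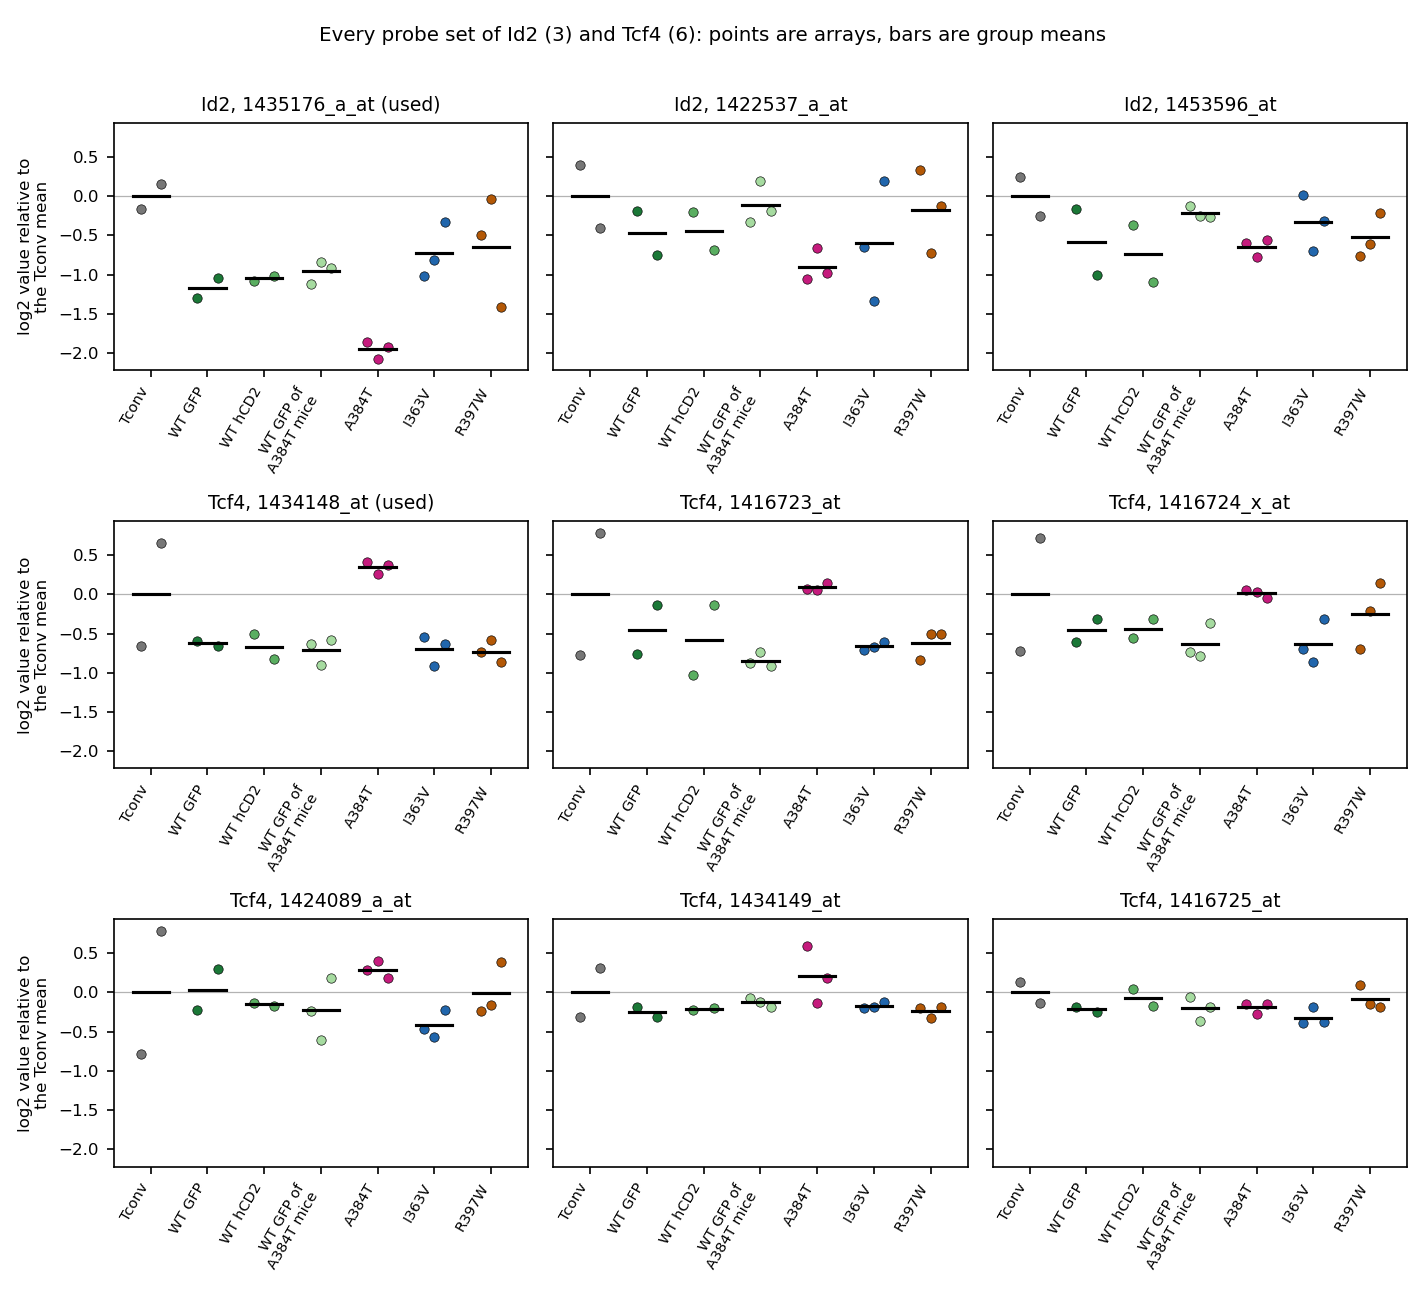
Each panel is 1 probe set of Id2 (3) or Tcf4 (6), each point an array and each bar a group mean; the vertical axis is the log2 value relative to the Tconv mean. By group mean A384T is lowest in both Id2 a_at panels, and it is the highest Treg group in 5 of 6 Tcf4 panels and not in that of 1416725_at.

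Markers of cells that express Tcf4 or Id2 were read beside the A384T values. The median of the 7 dendritic cell markers was -0.54, -0.44 and -0.71 on the A384T arrays and -0.59, -0.58 and -0.62 on the WT GFP arrays of the same mice. Against WT hCD2 0 of the 7 were called, with Siglech at -0.01 ± 0.16. The exception in direction was Ccr9, a homing receptor that T cells also use, at 1.06, 1.11 and 2.50 in A384T and 1.05 ± 0.44 above WT hCD2 without a call. With the replicate block it was 0.62 ± 0.10 above the paired wild-type cells (limma adjusted p = 0.00873), the 1 call among the 7, where Siglech differed by 0.07 ± 0.10. The median of 6 CD8 T, NK and innate lymphoid markers was between -0.50 and -0.18 in A384T and between -0.38 and -0.16 in wild-type cells of the same mice. Of these 6, 0 were called in either A384T comparison, with or without the block. B cells also express Tcf4, and the median of their 7 markers was -0.14, -0.12 and -0.34 in A384T and -0.26, 0.03 and -0.08 in the paired wild-type cells. Of these 7, 0 were called in A384T against WT hCD2, or against the paired wild-type cells with or without the block. Set against A384T, 1 of the 7 was called lower in I363V (1.14% of all genes) and 1 higher in R397W (3.13%). Of the dendritic cell markers and of the CD8 T, NK and innate lymphoid markers, 0 were called in either of those comparisons. The median of the 7 myeloid markers was -0.70, 0.08 and -1.12 on the A384T arrays, all below the WT hCD2 arrays at 0.24 and 0.22. In the paired wild-type cells it was -0.46, 0.47 and -0.34, so number 2 was highest in each group, and 4 of 7 were called lower than in paired wild-type cells with the block, S100a9 by -0.56 ± 0.11, Lyz2 by -0.50 ± 0.10, Fcgr3 by -0.48 ± 0.10 and S100a8 by -0.40 ± 0.09. In R397W the myeloid median was -1.60 to -0.89, and 1 of the 7 was called lower than in A384T, against 0 in I363V. Of all genes, 0.28% were called in A384T against WT hCD2, 0.522% against the paired wild-type cells and 5.23% with the block. At such shares 0 calls on 6 or 7 markers say nothing about a list. The part of the cells that carry these markers in the Id2 and Tcf4 differences was not tested.

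Against Tconv, Id3 was higher and Id2 lower in A384T as in wild-type Treg cells, and neither was called in I363V or R397W. Id3 stood at 1.2, 1.81 and 1.56 in A384T, at 1.36, 1.03 and 1.07 in I363V and at 1.47, 0.32 and 1.56 in R397W. Every one of these arrays lay above both Tconv arrays, with R397W array 2 the nearest. A384T was higher by 1.52 ± 0.30, or 2.87-fold (limma adjusted p = 0.00614), while I363V at 1.16 ± 0.30 (adjusted p = 0.0662) and R397W at 1.12 ± 0.30 (adjusted p = 0.089) were not called. The Id3 difference between R397W and A384T, -0.40 ± 0.27, was not called, so the mutants were not shown to differ. Leaving out 1 array brought the A384T adjusted p for Id3 up to 0.113, in 1 of 5 fits, that without Tconv array 2.

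Id2 was lower in A384T than in Tconv by -1.96 ± 0.29, or 3.88-fold (limma adjusted p = 0.000548), and kept its call with each of the 5 arrays left out. I363V at -0.72 ± 0.29 (adjusted p = 0.309) and R397W at -0.65 ± 0.29 (adjusted p = 0.432) were not called, and R397W array 2 at -0.04 overlapped Tconv. Called members were 2 of 6 for A384T against 6.52% of all genes, 0 of 6 for I363V against 2.51% and 0 of 6 for R397W against 2.02%. In each of the last 2 comparisons, 3 of 6 (Id2, Id3 and Tcf4) had an unadjusted p under 0.05 in limma. Tcf4 again turned on the Tconv arrays. Its differences of 0.35, -0.70 and -0.73 in A384T, I363V and R397W became 1.01 (adjusted p = 0.00543) in A384T without Tconv array 2, and -1.37 (adjusted p = 0.00113) and -1.39 (adjusted p = 0.000943) in I363V and R397W without Tconv array 1. All comparisons with Tconv share its 2 arrays.

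The order of the group means summed up these levels. For Id2 it ran from A384T (-1.96) through WT GFP (-1.17), WT hCD2 (-1.05), WT GFP of A384T mice (-0.95), I363V (-0.72) and R397W (-0.65) to Tconv (0). The range of A384T did not overlap the next group, and every later neighbour overlapped. For Id3 Tconv (0) was separate from the next group, R397W (1.12), and the groups from there to WT GFP of A384T mice (1.67) overlapped their neighbours. For Tcf4 the 5 Treg groups other than A384T had means from -0.73 to -0.62, Tconv had 0 with a range that overlapped every Treg group, and A384T had 0.35. For Id1, Tcf3 and Tcf12 every neighbouring pair overlapped, with means from -0.03 to 0.18, from 0 to 0.85 and from 0 to 0.45.

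Tcf3 and Tcf12 differed in how far their probe sets could be trusted to follow each other. The 2 further Tcf3 probe sets had r of 0.92 and 0.91 with the chosen one over the 18 arrays, and all had their highest mean in A384T mice, in wild-type or A384T cells. On the chosen probe set, Tcf3 stood at 0.89, 1.33 and 0.34 in A384T and at 0.67, 1.44 and 0.36 in the wild-type cells of those mice, with number 2 highest in each group and number 3 lowest. It stood at 0.55, -0.05 and 0.18 in I363V and at 0.41, -0.83 and 0.57 in R397W. The 4 further Tcf12 probe sets had r of -0.06 to 0.47 with the chosen one, and their A384T difference within A384T mice ran from -0.09 to 0.24 where the chosen one gave 0.36. Tcf12 on the chosen probe set stood at 0.60, 0.32 and 0.29 in A384T, at 0.18, 0.97 and 0.19 in I363V and at 0.26, 0.46 and 0.07 in R397W.

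By Pearson r over the 18 arrays, the genes most like each member were read off as a description. For Id2 they were Sgms1, Spice1 and Klhdc2 (r = 0.9 for each), for Id3 Msl3l2 (0.96), Lrrc8d (0.95) and Cndp2 (0.95), and for Tcf4 Cyp4f16 (0.77), Plac8 (0.76) and Glis3 (0.76). For Id1 they were Tnfrsf12a (0.79), Zbtb48 (0.76) and Sez6l2 (0.76), for Tcf3 Akt1s1 (0.95), Tap2 (0.95) and Vps72 (0.94), and for Tcf12 Lsm14b (0.9), Usp3 (0.85) and Acrbp (0.85). These r values hold the differences between groups as well as those between arrays of a group.

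Partners and cofactors of E proteins were represented by 14 genes (other bHLH factors, LIM adaptors and corepressors). In wild-type Treg cells against Tconv, where 5.84% of all genes were called, 1 of the 14 was called and the list median was 0. It was Bhlhe40, a bHLH repressor of activated T cells, higher by 1.99 ± 0.52. Against WT hCD2, 0 of the 14 were called in A384T, I363V or R397W, with medians of -0.03, -0.16 and -0.17, and 0 of the 14 with the replicate block in A384T mice. The shares of all genes called in these 4 tests were 0.28%, 0.912%, 2.26% and 5.23%, so few or no calls on a list of this size say nothing about the list. Against A384T, 1 of the 14 was called in I363V (1.14% of all genes) and 1 in R397W (3.13%). In both it was Lyl1, a bHLH partner of E proteins. Lyl1 was lower by -0.85 ± 0.13 in I363V (limma adjusted p = 0.00449) and by -0.56 ± 0.13 in R397W (adjusted p = 0.0363). It is named after its values were seen.

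Among 15 genes known to act on Id genes, 4 were called higher and 1 lower in wild-type Treg cells than in Tconv, where 5.84% of all genes were called, with a list median of 0.19. The receptors Bmpr2 and Tgfbr1, which signal to Smad proteins that act on Id promoters, were higher by 1.44 ± 0.29 and 1.29 ± 0.17. Egr2, a factor induced by the T cell receptor, was higher by 0.84 ± 0.21, as was Prdm1, the effector regulator Blimp-1, by 0.83 ± 0.21, while Smad5 fell by 0.65 ± 0.14. Between A384T and WT hCD2 0 of the 15 were called (0.28% of all genes), with a median of 0.17. With the replicate block, 1 of the 15 (5.23% of all genes) was called between A384T and the paired wild-type cells, Prdm1, lower by -0.46 ± 0.08 (limma adjusted p = 0.0126). Against WT hCD2, 1 of the 15 was called lower in I363V (0.912% of all genes), and 1 higher and 2 lower in R397W (2.26%). Prdm1 was lower than in WT hCD2 by -1.32 ± 0.22 in I363V (limma adjusted p = 0.0085) and by -1.46 ± 0.22 in R397W (adjusted p = 0.00225). In R397W Tbx21, which encodes T-bet, was also lower, by -1.75 ± 0.27 (adjusted p = 0.00249), and Smad5 higher, by 0.67 ± 0.15 (adjusted p = 0.027).

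The list of known targets of E proteins held 11 measured genes. In wild-type Treg cells against Tconv 3 were called higher and 1 lower, where 5.84% of all genes were called, with a list median of 0.25. Gfi1, a transcriptional repressor, was higher by 1.49 ± 0.10, the cell cycle kinase Cdk6 by 1.26 ± 0.15 and the follicular homing receptor Cxcr5 by 1.07 ± 0.23, while Il7r, the receptor for interleukin 7, fell by 1.43 ± 0.30. Between A384T and WT hCD2 0 of the 11 were called (0.28% of all genes), with a median of -0.17. Between A384T and wild-type cells of the same mice 0 of the 11 were called (0.522% of all genes), with a median of -0.15. At such shares 0 calls say nothing about the list. With the replicate block 4 of the 11 were called between A384T and wild-type cells of the same mice, 1 higher and 3 lower. The block called 5.23% of all genes. Cxcr5 was lower by -0.64 ± 0.08, Il7r by -0.55 ± 0.08 and the cytokine gene Il4 by -0.51 ± 0.10, while Socs3, an inhibitor of cytokine signalling, was higher by 0.46 ± 0.08. Il4 and Socs3 are named after their values were seen. Against WT hCD2, 1 of the 11 was called lower in I363V (0.912% of all genes) and 1 in R397W (2.26%), with list medians of -0.05 and -0.08. In both it was Cxcr5, lower than in WT hCD2 by -1.68 ± 0.24 in I363V (limma adjusted p = 0.00269) and by -1.70 ± 0.24 in R397W (adjusted p = 0.00127).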

How the data were processed

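RNA of 18 sorted samples had been extracted with Isogen and RNeasy columns and labelled by the GeneChip two-cycle method, per the labels. The authors deposited log2 values made with RMA, per the submitters' processing notes; software and version are not given in the sources used here, and the log base follows RMA convention. The 2 Tconv values of each of 45101 probe sets sum to at most 1e-06, so the values are centred on Tconv. The chip annotation gave 34945 probe sets to 1 gene; 932 with several genes, 64 controls and 9160 without a gene were left out. RefSeq matched 34741 by gene ID.

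Group means were fitted with limma 3.58.1 in R 4.3.3 (11 residual and 3.29 prior degrees of freedom in the fit of all 18 arrays). The block fit of 6 arrays had fewer residual degrees of freedom. Arrays of A384T and of wild-type GFP cells of A384T mice with equal numbers had correlated deviations (r = 0.69, 0.65 and 0.58), so they were treated as pairs; no label says what they share. The 6 members and all gene lists were chosen with earlier results of these data known. An item of the target list is not reported here. All 6 members are named, with the 3 genes most like each and up to 4 called genes per list and comparison type. Scripts used Python 3.11.15, numpy 2.4.6, pandas 2.3.3 and matplotlib 3.10.9. Tested on simulated data, R397W against A384T recovered 28.7%, 76.4% and 97.3% of changes of 0.5, 1 and 2 (log2), with 6.2% false calls. Wild-type Treg cells against Tconv recovered 21.2%, 73.7% and 94.5%, with 4.8% false calls. The simulated noise was independent between arrays and had the same variance in every group. Real arrays deviated together in part, so these rates may not carry over. Alternatives were other probe set rules, fits, centring, array weights, robust eBayes, replicate blocks and leaving out arrays.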

Additional observations from a re-analysis of the deposited data

How the results depend on the processing

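Each of 84 member changes was recomputed under alternatives, 1044 in all: 901 kept direction and side of the threshold, 90 changed sign without a call on either side, 17 gained a call, 36 lost one and 0 reversed with a call. The 8 called changes kept their direction in 102 of 102 alternatives. The 90 sign changes fell on 39 of the 76 uncalled changes. With arrays left out in turn, called members ranged from 0 to 2 for wild-type Treg against Tconv, 0 to 1 for I363V against A384T, 0 to 2 for R397W against A384T and 0 to 1 for I363V and for R397W against Tconv. For A384T against wild-type cells of the same mice, where 0 were called, array weights, the fit of these groups alone and the replicate block each gave 2. That block called 5.23% of all genes, against 0.522% without it. For the other alternatives here the share of all genes called was not computed, so their counts cannot be set against it. The block also gave 2 with every probe set and with the mean of probe sets, 2 alternatives chosen after seeing the data. For I363V against A384T, 2 became 1 with centred arrays, with every probe set or with robust eBayes, and 0 with the mean of probe sets. For R397W against A384T, 2 became 1 with the mean of probe sets or with these groups alone. I363V against Tconv gained 1 with array weights. Replicate numbers were also used as a block where nothing shows that they pair arrays: called members became 0 for I363V and for R397W against A384T (2 without the block) and 1 for A384T against Tconv. Equal numbers of Tconv and WT GFP deviated together (r = 0.71, with 2 pairs only), and their block added Tcf3 (0.51 ± 0.12, limma adjusted p = 0.0124), for 3 called. The block changed no count of called members in the other comparisons that allow it. The causes were not tested. Signal over background is unknown in centred values, so low signal could not be screened.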
